A study of Mus musculus with 7 samples.

Results

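Red cell membrane skeleton genes were examined in B-cell precursor (BCP) samples from Eμ-Ret mice. The list holds 8 genes, Sptb, Ank1, Epb4.2, Gypc, Tmod1, Add2, Dmtn and Kel, taken by symbol from a table of 24341 genes, and all 8 were in the table. RNA was sequenced from splenic BCP cells of 3 leukemic samples (moribund older mice with overt disease) and 4 preleukemic samples (young mice without overt disease). All 7 samples carried the Ret transgene as hemizygotes on a BALB/c background, under the immunoglobulin heavy chain enhancer Eμ, so no sample was transgene-negative. Per the labels, cells of both groups were sorted by flow cytometry. The study's methods describe sorting of preleukemic cells, and for in vitro work leukemic spleen cells that were in most cases not enriched. The purity of the leukemic samples that were sequenced is not stated there. The study describes the preleukemic gate as intermediate B220, intermediate CD43 and high BP-1. The age of each mouse is not in the labels, so age and disease state cannot be told apart.

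The red cell membrane is held up from the inside by a net of spectrin tetramers, of which erythroid β-spectrin (Sptb) is a subunit. The net meets the membrane at 2 kinds of anchor. At the first, ankyrin-1 (Ank1) ties β-spectrin to the anion exchanger band 3 (Slc4a1), with protein 4.2 (Epb4.2, the older symbol of Epb42) bound to both. At the other, the junctional complex, short actin filaments are capped by tropomodulin-1 (Tmod1) and bound by β-adducin (Add2) and dematin (Dmtn), and glycophorin C (Gypc) is held through protein 4.1 (Epb4.1). The Kell glycoprotein (Kel) is a membrane metallopeptidase joined to the Xk protein. These genes are switched on in red cell precursors, largely under Gata1 and Klf1, and Sptb, Ank1 and Epb4.2 are classical genes of hereditary spherocytosis. Gypc, protein 4.1 and several adducins are also made in lymphoid cells.

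The promoters of the members are shown first, as sequence only. RefSeq promoter windows on GRCm38.p6 were matched for 5 of the 8 genes (Sptb, Epb4.2, Tmod1, Add2 and Kel). Ank1, Gypc and Dmtn were not matched. In the 250 bases before each start site, AGATAA and TGATAA, which are core motifs of GATA factors, and CACCC, the core of KLF motifs, were searched on both strands. AGATAA or TGATAA was present in 2 of the 5 windows, those of Kel and Epb4.2, against 16.6% of the 32851 promoters in the table. CACCC was present in 4 of the 5, all but Epb4.2, against 52.0% of all promoters. The windows of Kel (chr6:41704326-41704575, minus strand) and Epb4.2 (chr2:121036878-121037127, minus strand) carry the GATA letters in capitals. That of Sptb (chr12:76710548-76710797, minus strand), which has none, is given beside them for comparison.
Kel: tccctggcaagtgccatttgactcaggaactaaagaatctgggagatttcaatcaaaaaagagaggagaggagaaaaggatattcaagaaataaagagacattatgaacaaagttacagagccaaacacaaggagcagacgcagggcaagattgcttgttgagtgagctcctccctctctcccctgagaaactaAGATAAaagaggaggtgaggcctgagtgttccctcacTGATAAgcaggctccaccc
Epb4.2: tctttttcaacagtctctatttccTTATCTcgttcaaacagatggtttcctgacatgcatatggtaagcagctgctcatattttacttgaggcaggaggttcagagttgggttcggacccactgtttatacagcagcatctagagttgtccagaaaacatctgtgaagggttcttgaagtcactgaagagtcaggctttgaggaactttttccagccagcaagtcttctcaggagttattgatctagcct
Sptb: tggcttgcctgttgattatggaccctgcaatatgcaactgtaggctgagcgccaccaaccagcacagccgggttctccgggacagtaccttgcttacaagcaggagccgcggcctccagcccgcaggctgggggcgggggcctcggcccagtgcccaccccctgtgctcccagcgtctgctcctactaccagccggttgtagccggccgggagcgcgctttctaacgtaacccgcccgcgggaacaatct
In Kel, AGATAA begins at position -56 and TGATAA at -19 relative to the start site, both on the strand of the gene. In Epb4.2, AGATAA lies on the other strand, where its letters read TTATCT, and begins at position -226. A match is only a match of letters, and no binding was measured.

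Levels are given as FPKM (fragments per kilobase of transcript per 1e6 mapped fragments), which are comparable between genes because they are scaled to length. The table has a floor of 0.01 FPKM. Preleukemic replicate 1 stood apart from the other 3 preleukemic samples in most of the skeleton genes and in red cell precursor markers, and counts of calls that rest on it are given with and without it. Implied depth was between 13.6 and 16.0 (in units of 1e6 fragments) per sample. Differences were tested with limma on log2(FPKM + 1) for the 10541 genes with a summed FPKM of 10 or more, and p-values were adjusted over all of these by Benjamini-Hochberg. On this scale the change of a gene with low FPKM is understated.

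All 8 skeleton genes were higher in leukemic than in preleukemic samples, and all 8 passed an adjusted p of 0.05. Over the whole table, 8.47% of genes tested were called higher and 6.26% lower. The log2 fold changes of the 8 ranged from 1.21 (Gypc) to 3.96 (Kel), with a median of 3.52 against -0.02 over all genes tested. The lowest leukemic value lay above the highest preleukemic value for each of the 8, as it did for 14.9% of genes tested. In such bulk samples, fewer cells of a type and less RNA per cell cannot be told apart.

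**Figure D1:**
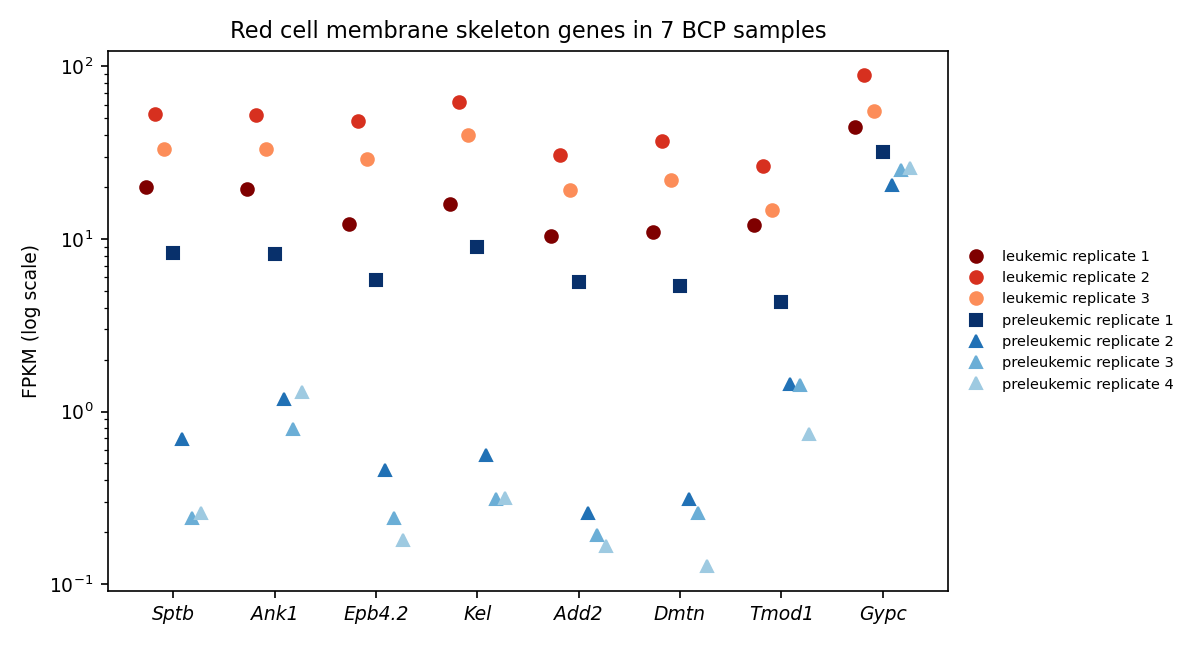
FPKM (log scale) of the 8 skeleton genes in each of the 3 leukemic (circles) and 4 preleukemic samples (square for replicate 1, triangles for replicates 2 to 4), 1 point per sample. Preleukemic replicate 1 lies between the leukemic samples and the other 3 preleukemic samples for all 8 genes, by the smallest margin for Gypc, which stays above 20 FPKM everywhere.

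Of the spectrin and ankyrin genes, Sptb (chromosome 12, 76580488 to 76710547, coordinates on mm10 as for all genes here) stood at 20.0, 53.3 and 33.4 FPKM in the leukemic samples, listed by replicate from 1 to 3. The preleukemic samples, listed from 1 to 4, held 8.28, 0.693, 0.240 and 0.259 FPKM. Preleukemic replicate 1 was thus 20.9-fold above the mean of the other 3 preleukemic samples, yet below every leukemic sample. The means were 35.6 ± 16.8 (SD, n = 3) and 2.37 ± 3.95 FPKM (SD, n = 4), a log2 fold change of 3.93 ± 0.73 (SE) at an adjusted p of 0.0186 by limma. Sptb has a single RefSeq transcript of 10394 bases, and its level corresponds to about 8320 fragments in leukemic replicate 2 and about 34 in preleukemic replicate 3.

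Ank1 (chromosome 8, 22974836 to 23150497) was measured at 19.5, 52.1 and 33.1 FPKM in leukemic and at 8.22, 1.19, 0.797 and 1.29 FPKM in preleukemic samples. Leukemic replicate 2 was again the highest, and the groups did not overlap. The log2 fold change was 3.47 ± 0.60 (SE) at an adjusted p of 0.0167 by limma. Ank1 and Sptb were at the same level in 4 samples. The ratio of Sptb to Ank1 was 1.01 to 1.02 in the leukemic samples and 1.01 in preleukemic replicate 1. It was 0.584, 0.301 and 0.201 in preleukemic replicates 2 to 4, where both genes were near or below 1 FPKM and Ank1 was the higher of the pair. The table gives 1 value per gene, so the many Ank1 isoforms are not separated.

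Epb4.2 (chromosome 2, 121018217 to 121036755) had 12.2, 48.4 and 29.1 FPKM in the leukemic samples. Its preleukemic values were 5.76, 0.461, 0.243 and 0.179 FPKM. The fold between group means was the largest of the 8, at 18.0, and the log2 fold change was 3.79 ± 0.71 (SE) at an adjusted p of 0.0185 by limma. In preleukemic replicates 3 and 4 these values correspond to about 13 and 10 fragments, so their order there rests on few reads. Band 3 itself (Slc4a1), which protein 4.2 binds, rose further on this scale (log2 fold change 5.29 ± 1.09, SE, at an adjusted p of 0.0239 by limma).

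Kel (chromosome 6, 41686330 to 41704325) was measured at 16.0, 62.5 and 40.2 FPKM in leukemic and at 8.93, 0.562, 0.312 and 0.317 FPKM in preleukemic samples. The groups did not overlap, and the log2 difference for Kel was 3.96 ± 0.80 (SE), close to that of Sptb, with an adjusted p of 0.0226 by limma. Its leukemic values spread 3.90-fold from replicate 1 to replicate 2, and only Epb4.2, at 3.98-fold, spread more. Its partner Xk had 7.90 ± 3.53 and 4.35 ± 0.848 FPKM and did not pass (log2 fold change 0.66, 95% interval -0.02 to 1.35, limma adjusted p = 0.157), but passed without leukemic replicate 1 (1.02, limma adjusted p = 0.0201). Kel was at 3.88 to 5.62 times the FPKM of Xk in leukemic samples but at 0.0706 to 1.68 times in preleukemic samples.

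At the junctional complex, Add2 (chromosome 6, 86028681 to 86124409) had 10.4, 30.5 and 19.2 FPKM in the leukemic and 5.66, 0.260, 0.191 and 0.167 FPKM in the preleukemic samples. Of the 8 genes it had the widest gap within the preleukemic group, replicate 1 being 27.5-fold above the mean of the other 3. Its log2 fold change was 3.39 ± 0.68 (SE) at an adjusted p of 0.0221 by limma. Dmtn (chromosome 14, 70602184 to 70636048) had 11.0, 37.0 and 22.1 FPKM in the leukemic and 5.34, 0.309, 0.257 and 0.127 FPKM in the preleukemic samples, a log2 fold change of 3.57 ± 0.67 (SE) at an adjusted p of 0.0191 by limma. The ratio of Add2 to Dmtn ran from 0.745 to 1.31 over the 7 samples, and from 0.824 to 0.939 over the leukemic samples.

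Tmod1 (chromosome 4, 46039222 to 46138475) had 12.1, 26.4 and 14.7 FPKM in the leukemic and 4.32, 1.44, 1.43 and 0.741 FPKM in the preleukemic samples. It was the lowest of the 8 in leukemic replicates 2 and 3, but among the 3 highest in preleukemic replicates 2 to 4. The log2 fold change was 2.71 (standard error 0.41), and the adjusted p was 0.0128 by limma.

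Gypc (chromosome 18, 32528320 to 32560034) had the smallest change of the 8. It had 44.5, 88.9 and 54.9 FPKM in the leukemic and 31.8, 20.6, 25.0 and 25.9 FPKM in the preleukemic samples, and was the highest of the 8 in each of the 7 samples. The means, 62.8 ± 23.2 (SD, n = 3) and 25.8 ± 4.61 FPKM (SD, n = 4), differed 2.43-fold, a log2 fold change of 1.21 ± 0.24 (SE) at an adjusted p of 0.0224 by limma. Preleukemic replicate 1 was only 1.33-fold above the mean of the other 3. Protein 4.1 (Epb4.1), which holds glycophorin C in place, had a similar profile. It had 60.4, 111 and 66.6 FPKM in the leukemic and 34.7, 24.3, 26.8 and 27.2 FPKM in the preleukemic samples (log2 fold change 1.42 ± 0.22, SE, at an adjusted p of 0.0134 by limma). The ratio of Gypc to Epb4.1 was between 0.737 and 0.950 in all 7 samples. The third protein of the glycophorin C complex, p55 (Mpp1), had 90.7 ± 25.9 and 99.9 ± 8.70 FPKM and did not pass (log2 fold change -0.17, 95% interval -0.61 to 0.26, limma adjusted p = 0.53). The sign of that difference turned without leukemic replicate 1.

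Among themselves the 8 genes ran in parallel across the samples. All 8 had leukemic replicate 2 above replicate 3 above replicate 1, and preleukemic replicate 1 above the other 3 preleukemic samples, an order held by 5.19% of genes tested. Pearson's r of log2(FPKM + 1) over the 7 samples, which differ in group and share the same libraries for every gene, was 0.929 to 0.999 over the 28 pairs. Over the 15 pairs without Gypc and Tmod1 it was at least 0.996. In leukemic samples the order by mean FPKM was Gypc, Kel, Sptb, Ank1, Epb4.2, Dmtn, Add2 and Tmod1. Kel did not differ from Sptb beyond the spread (mean log2 ratio 0.06 ± 0.33, SD, n = 3), nor Add2 from Tmod1 (0.12 ± 0.31). Gypc was above Kel in each of the 3 samples (0.81 ± 0.57). Ank1 was above Epb4.2 in each of the 3, by a gap about as wide as its spread (0.32 ± 0.31), and Dmtn was above Add2 by 0.19 ± 0.10. Sptb exceeded Ank1 in each of the 3, by 0.03 ± 0.01.

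The level of each gene was also set against that of Slc4a1 in the same sample. In the 3 leukemic samples and preleukemic replicate 1, Sptb was at 8.94 to 11.4% of Slc4a1, a 1.28-fold range, while its FPKM ranged 6.44-fold. Dmtn was at 6.06 to 7.06%, Epb4.2 at 6.98 to 8.12%, Kel at 9.18 to 11.8%, Ank1 at 8.73 to 11.2% and Add2 at 5.11 to 7.48%. In preleukemic replicates 2 to 4, where Slc4a1 itself was 2.53 to 4.49 FPKM, Kel was at 11.7 to 12.5% and Sptb at 9.47 to 15.4%. Kel corresponds to only about 19, 10 and 10 fragments in these 3 samples, so its narrow range there rests on few reads. Ank1 and Tmod1 did not keep their proportion there, at 26.4 to 47.5% and 27.3 to 56.5%. Gypc was at 459 to 986% in those 3 samples and at 14.9 to 42.1% in the other 4.

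**Figure D2:**
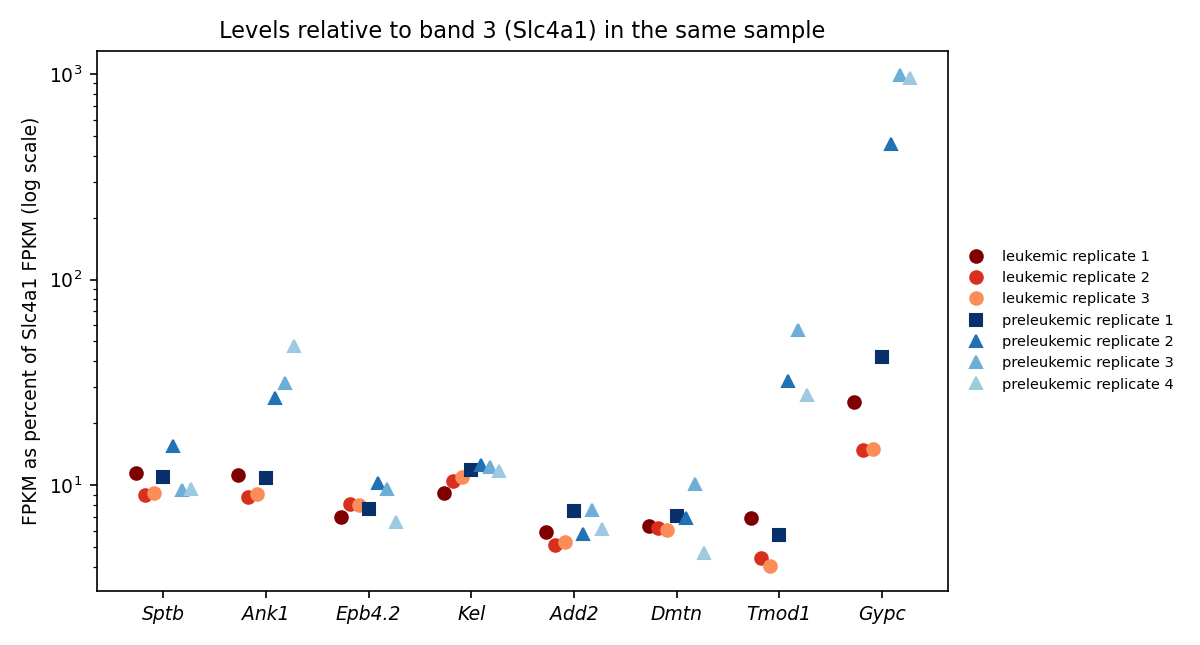
FPKM of each skeleton gene as a percent of Slc4a1 FPKM in the same sample (log scale), 1 point per sample, symbols by group and replicate. Sptb, Epb4.2, Kel, Add2 and Dmtn lie between 4.68 and 15.4% in all 7 samples, while Gypc, Tmod1 and Ank1 lie higher in preleukemic replicates 2 to 4.

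The genes most like each member over the 7 samples were sought among 10935 genes with a mean of at least 1 FPKM, as a description by Pearson's r. For Sptb these included Aqp1, the water channel of red cells, and Lmna, the gene of lamins A and C (r of at least 0.999). For Ank1 they included Bex4 and Ces2g, and for Epb4.2 they were Tnfaip2, a row listed under a date in place of its symbol, and Spire1. Add2 was most like Tspan33, Ermap and Nxpe2, and Kel most like Ermap, the same date row and Tmcc2. Ermap encodes the Scianna blood group protein of red cells. Dmtn was most like that row, Btnl10 and Rab3il1. The nearest genes of Gypc included Prdx2 (peroxiredoxin-2, abundant in red cells) and Apeh, both with r of 0.995. Those of Tmod1 were Ppap2a, E2f4 and Map4k5.

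Of 21 other genes of the same membrane complexes, 20 could be tested (Bcam had too low an FPKM), and 14 were called higher and 0 lower. Among those called were Epb4.1, Tpm1, Slc4a1, Rhag, Rhd, Icam4, Cd47, Cd44, Ermap, Stom, Aqp1 and Piezo1. The median log2 fold change over the 20 was 1.36. Rhag (4.41) and Rhd (4.75), genes of the Rh proteins in the band 3 complex, had log2 fold changes above all 8 skeleton genes. As folds between group means, Rhag (16.8) and Rhd (17.2) were below Epb4.2 (18.0). At the lower end of the calls were Tpm1 (0.45), which encodes a tropomyosin of the actin filament, the mechanosensitive channel Piezo1 (0.73) and Cd47 (0.89). The count of 14 was 12 without preleukemic replicate 1, and fell to 8 without leukemic replicate 3, to 4 without preleukemic replicate 2 and to 0 without preleukemic replicate 3 or 4 (limma, 14 with an unadjusted p under 0.05 in both). Slc4a1 was lost without leukemic replicate 3 (limma adjusted p of 0.0535), and Epb4.1 was kept without preleukemic replicate 2 (limma adjusted p of 0.0428). Actb, Add1, Tpm3, Mpp1, Xk and Slc2a1 did not pass. Add1, the α-adducin that pairs with β-adducin, had 82.9 ± 19.1 and 64.5 ± 4.59 FPKM (log2 fold change 0.34, 95% interval -0.01 to 0.69, limma adjusted p = 0.161), and Add2 was at 0.00247 to 0.0841 times the FPKM of Add1 in preleukemic and at 0.156 to 0.293 times in leukemic samples.

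The relatives of these genes that other cells use are given for comparison. Of 17 such genes, 9 were too low to test, among them Ank2 and Ank3, and of the 8 tested 1 was called higher, 1 lower and 6 were not called, with a median log2 fold change of -0.09. Whatever the p, 2 of the 8 were higher and the others lower. Sptbn1, the β-spectrin of most tissues, had 74.3, 73.7 and 72.3 FPKM in the leukemic and 89.2, 92.5, 95.4 and 98.0 FPKM in the preleukemic samples. It fell by 0.35 on the log2 scale (standard error 0.07, limma adjusted p = 0.0198). Sptbn1 no longer passed without preleukemic replicate 2, 3 or 4 (limma adjusted p of 0.0523, 0.0683 and 0.073), while Tgm2, described last, passed without any 1 sample. The partner of Sptbn1, Sptan1, did not pass (log2 fold change -0.23, 95% interval -0.42 to -0.04, limma adjusted p = 0.0927). Sptb itself was at 0.269 to 0.724 times the FPKM of Sptbn1 in leukemic samples and at 0.00251 to 0.0928 times in preleukemic samples. The γ-adducin gene Add3 (log2 fold change -0.10, 95% interval -0.32 to 0.12) and the widely made tropomodulin Tmod3 (0.12, 95% interval -0.18 to 0.43) did not pass, while Add2 and Tmod1 did. These differences between relatives were not tested against each other. The gene called higher was Tgm2, tissue transglutaminase, a relative of protein 4.2, with 7.08 ± 2.79 and 0.564 ± 0.409 FPKM (log2 fold change 2.35 ± 0.29, SE, at an adjusted p of 0.00879 by limma). Tgm2 is also known as a gene of macrophages and endothelium.

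**Figure D3:**
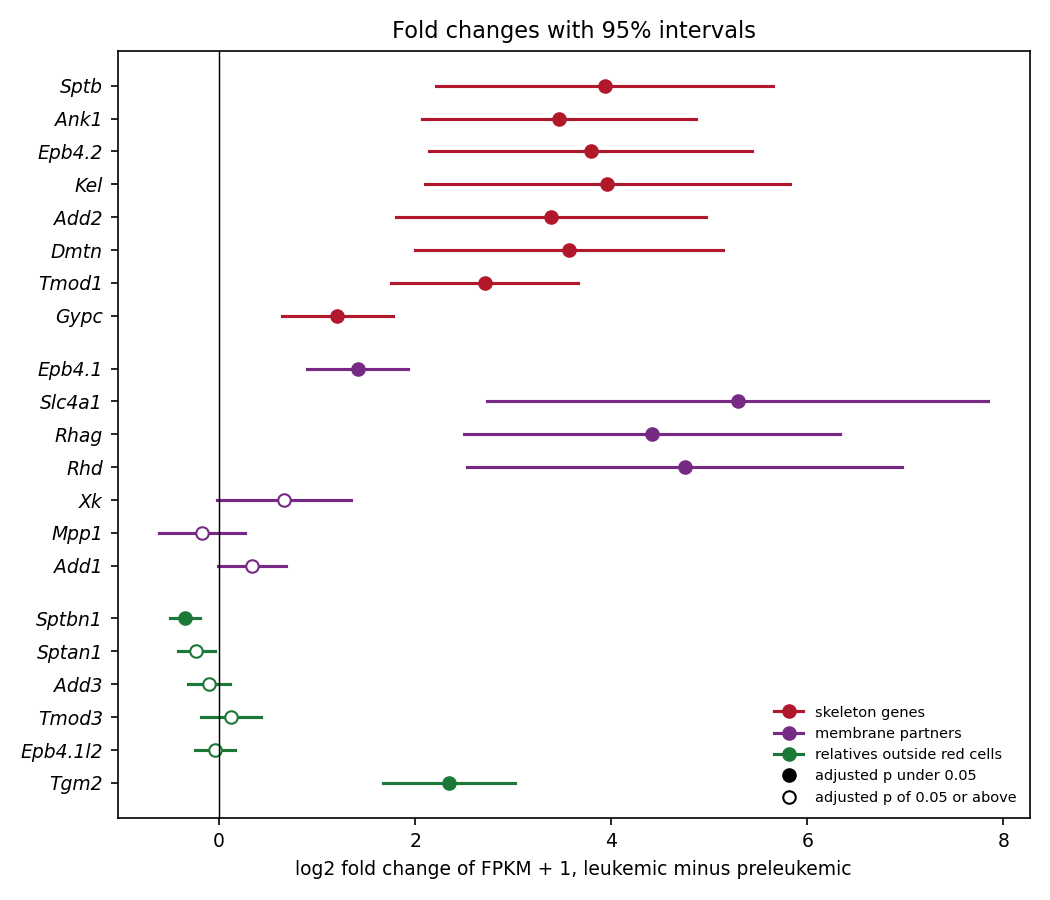
Log2 fold change of FPKM + 1 (leukemic minus preleukemic, 3 against 4 samples) with its 95% interval for the 8 skeleton genes, 7 membrane partners and 6 relatives used outside red cells; filled points passed an adjusted p of 0.05 with limma. All 8 skeleton genes lie above 1, whereas the relatives other than Tgm2 lie between -0.35 and 0.12.

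Markers of red cell precursors moved with these genes. Of 22 markers listed, 20 were in the table and 19 could be tested, and all 19 were called higher (median log2 fold change 4.41). The count was 18 without preleukemic replicate 1, 15 and 12 without leukemic replicates 2 and 3, and 1 without preleukemic replicate 2, 3 or 4, where all 19 still had an unadjusted p under 0.05 with limma. Hbb-bs was at the floor in all 7 samples, at the same locus as Hbb-b1. The summed FPKM of the list was 5910 to 26890 in leukemic samples and 477 to 2947 in preleukemic samples, with preleukemic replicate 1 the highest of these at 2947 against 477 to 495 in the other 3. Some of its genes, Rhag and Slc4a1 among them, also stand in the list of membrane partners. The labelled cell type was present in all samples. The 13 BCP markers, none of them at the floor, summed to 3454 to 5414 FPKM in leukemic and 6488 to 8092 FPKM in preleukemic samples, and 4 were called lower and 0 higher with limma (11 with an unadjusted p under 0.05). With 1 sample left out, 1 to 7 of the 13 were called lower, 3 of them without preleukemic replicate 1 and 1 without preleukemic replicate 3 or 4. A single BCP marker was called higher, without leukemic replicate 1. Enpep, which encodes the sort antigen BP-1, had 19.1, 102 and 77.2 FPKM in the leukemic and 134, 210, 180 and 191 FPKM in the preleukemic samples. Each leukemic value lay below each preleukemic value, as for 17.1% of genes tested. Enpep did not pass (log2 fold change -1.70, 95% interval -2.93 to -0.48, limma adjusted p = 0.0688). Enpep was called lower without leukemic replicate 1 (-0.98, limma adjusted p of 0.0247) and without leukemic replicate 2 (-2.16, limma adjusted p of 0.037). The part of red cell precursors in the rise of the skeleton genes was not tested.

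Platelet markers summed to 14.3 to 54.8 FPKM in leukemic and 0.368 to 3.26 FPKM in preleukemic samples (4 of 4 tested called higher, of 8 listed). These 4 passed the filter only through their leukemic values, so that count adds no support. Without a filter 6 of the 8 were called higher. Macrophage markers summed to 48.9 to 239 and 13.0 to 23.1 FPKM (6 of 9 tested called higher, of 10 listed). Among them Csf1r, C1qb and C1qc passed the filter only through their leukemic values, and without a filter 4 of 10 were called higher. Neutrophil markers summed to 1405 to 1735 and 148 to 853 FPKM (4 of 9 called higher, of 10 listed), and T and NK cell markers to 12.3 to 68.5 and 10.7 to 19.0 FPKM (0 of 7 tested called with limma, 2 with an unadjusted p under 0.05, of 10 listed). These counts too changed when 1 sample was left out. For platelet markers 2 were called without leukemic replicate 3 or preleukemic replicate 2, 1 without preleukemic replicate 3 or 4 and 4 without preleukemic replicate 1. For macrophage markers 9, 4 and 3 were called without leukemic replicates 1 to 3, and 1 without any 1 of the preleukemic samples. For neutrophil markers 8 were called without preleukemic replicate 1, 1 without any 1 of the leukemic samples and 0 with limma without preleukemic replicate 2, 3 or 4 (9, 8 and 8 with an unadjusted p under 0.05). For T and NK cell markers 2 were called without leukemic replicate 1. No marker of these lists was at the floor in every sample of a group. The part of these cell types in the result was not tested either.

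**Figure D4:**
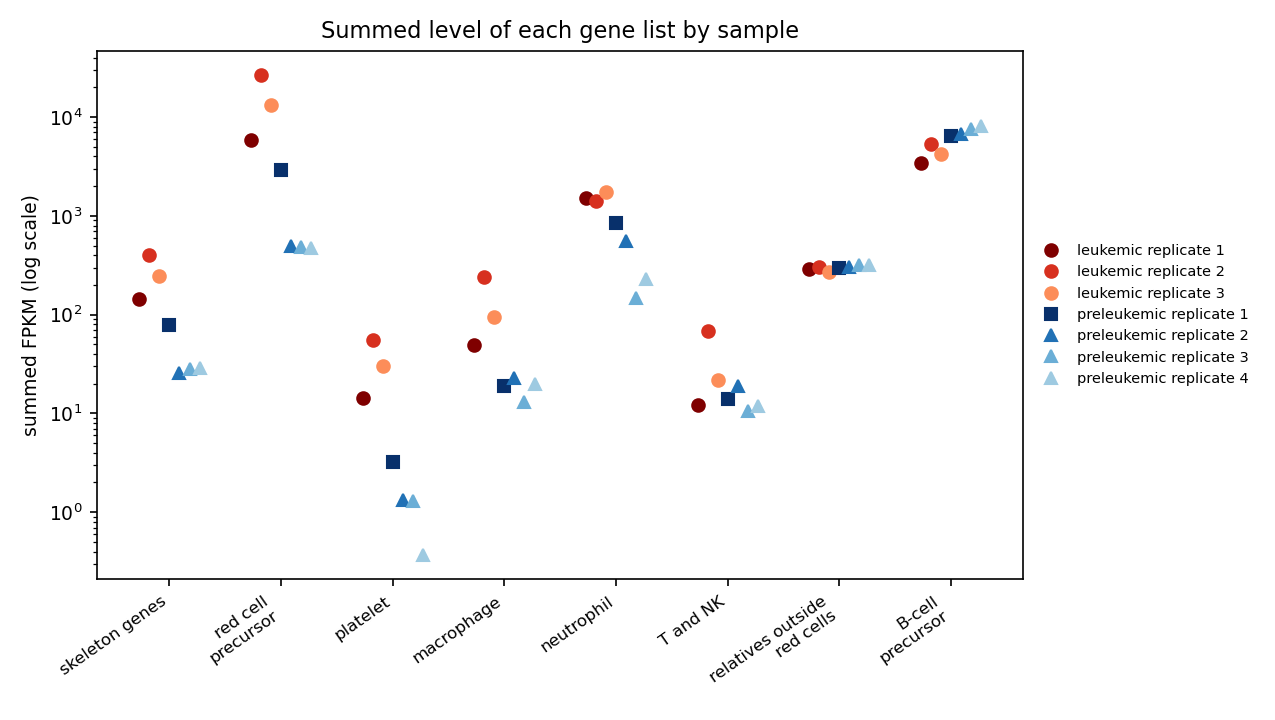
Summed FPKM (log scale) of the skeleton genes, of marker lists for 6 cell types and of the relatives used outside red cells, 1 point per sample. The skeleton genes and the red cell precursor, platelet and macrophage markers all place the leukemic samples and preleukemic replicate 1 in the same order. For macrophage markers, however, preleukemic replicate 1 (19.1 FPKM) does not stand apart from the other preleukemic samples (13.0 to 23.1 FPKM). Preleukemic replicate 1 is at 78.3 FPKM for the skeleton genes and 2947 FPKM for the red cell precursor markers, while the relatives stay between 268 and 318 FPKM.

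The calls of the 8 genes depended on which samples were kept. The losses fell in fits that kept preleukemic replicate 1, but nearly every fit kept it, so this does not single it out. Over the whole table the calls fell without it too, from 1553 to 932, and those of membrane partners from 14 to 12. Leaving it out lowered the standard error of Sptb from 0.73 to 0.35 and raised that of Gypc from 0.24 to 0.25. Without that sample all 8 genes passed (limma adjusted p from 0.00417 to 0.0331), against 5.80% of all genes called higher and 3.05% lower, and the fold changes were larger, with a median of 4.08 on the log2 scale. Against the other 3 preleukemic samples, the leukemic means were 2.63-fold (Gypc) to 102-fold (Epb4.2) higher. Without preleukemic replicate 2 or 3, Tmod1 alone passed (limma adjusted p from 0.0421 to 0.066 and from 0.0461 to 0.0686 over the 8 genes). Without preleukemic replicate 4 none of the 8 did (limma adjusted p from 0.05 to 0.076, all 8 with an unadjusted p under 0.05). Over all 10541 genes tested, 443, 271 and 149 were called without preleukemic replicates 2, 3 and 4, against 1553 with all samples. Without leukemic replicate 3 Kel was lost (limma adjusted p = 0.052). The direction was the same in every case.

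**Figure D5:**
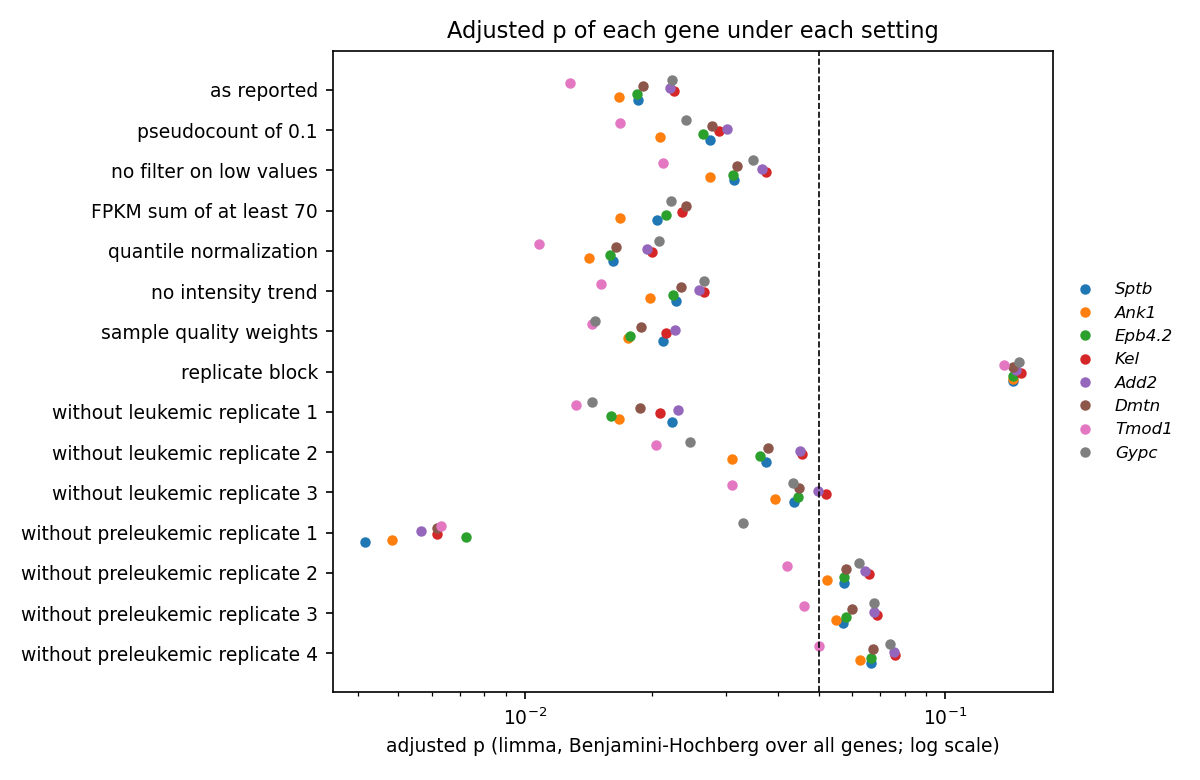
Adjusted p (limma, Benjamini-Hochberg over all genes, log scale) of each skeleton gene under each setting, with a dashed line at 0.05. Points right of the line are the 8 genes with the replicate block and without preleukemic replicate 4, 7 genes without preleukemic replicate 2 or 3, and Kel without leukemic replicate 3.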

How the data were processed

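The authors sequenced mRNA of BCP cells, sorted per the labels, with a stranded library kit. The authors deposited 1 table of FPKM values, with 1 column per sample. The submitters' processing notes name STAR 2.5.0b, bedtools 2.17.0, Cufflinks 2.2.1, Bowtie and DESeq2 and the mm10 build, without roles, and the annotation is not given in the sources used here. Columns were matched to samples by the sample number in the labels. As FPKM is not a count, DESeq2 on counts, which the study's methods describe, was not run here, but its filter (a sum of at least 10) and FDR of 0.05 were kept, with the sum taken over FPKM.

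Tests used limma 3.58.1 in R 4.3.3 (lmFit, eBayes with an intensity trend) on log2(FPKM + 1), without covariates, for 3 leukemic against 4 preleukemic samples. The labels do not say that the samples came from separate mice, so p-values measure only the spread between these samples. The fit was tested on simulated data. The members, gene lists and tests were chosen with earlier results of these data known. Named are the 8 members, the most abundant genes of each list, the sort markers, partners or relatives of a member, and the 3 genes most like each member. A few genes that this rule names are not reported here.

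Depth was read from the steps of low values of 8089 genes with a single RefSeq transcript of over 1500 bases, taking a fragment length of 200 bases. Between 76.4 and 78.6% of these low values were within 0.1 of a whole fragment, against 20% by chance. Fragment numbers cover counting error only. At most 1 gene above the floor had the same FPKM in a pair of samples. Starts in the table count from 0 and are given here from 1. Tables and figures were made in Python 3.11.15 with matplotlib 3.10.9. Alternatives were a pseudocount of 0.1, other filters, quantile normalization, no intensity trend, sample quality weights, a replicate block and each sample left out.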

Additional observations from a re-analysis of the deposited data

Results flagged for a closer look

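Preleukemic replicate 1 stood apart from the other 3 preleukemic samples in 6 of the 8 skeleton genes. The measure is the gap between the highest sample and its neighbour, as a share of the range of the 4 samples on the log2(FPKM + 1) scale. Groups past Dixon's critical value for 4 samples at the 95% level are given. It was 0.845 for Sptb, 0.852 for Ank1, 0.877 for Epb4.2, 0.956 for Add2, 0.913 for Dmtn and 0.914 for Kel. Tmod1 and Gypc were below that value. Chance passes about 1 in 20 groups, and 698 of the 10541 genes tested (6.62%) passed, in either direction. Of the 82 preleukemic groups examined for the text, 28 passed, many of them chosen for being like these genes.

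Among membrane partners and relatives the share was 0.857 for Slc4a1, 0.881 for Aqp1, 0.927 for Rhag, 0.862 for Rhd, 0.900 for Ermap and 0.845 for Tgm2. Among red cell precursor markers it was 0.894 for Hbb-b1, 0.871 for Hba-a1, 0.849 for Hbb-bt and 0.925 for Tspan33. Among the genes most like a member it was 0.835 for Bex4, 0.890 for Ces2g, 0.843 for Tnfaip2, 0.929 for Spire1, 0.839 for Ppap2a, 0.983 for Nxpe2, 0.990 for Btnl10, 0.834 for Rab3il1, 0.875 for Tmcc2 and 0.975 for the row listed under a date. The summed FPKM gave 0.935 for the skeleton genes and 0.993 for the red cell precursor markers. In each of these the sample apart was preleukemic replicate 1, and it was the highest.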

How the results depend on the processing

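The 8 skeleton genes were higher in leukemic samples under every alternative in which they could be tested. All 8 passed with a pseudocount of 0.1, without a filter, with quantile normalization, without an intensity trend and with sample quality weights. The 6 left by a filter at an FPKM sum of 70 all passed. Except for Gypc, these reached that sum only through the leukemic samples, so their passing adds no support. The filter at a sum of 10 likewise kept Sptb, Epb4.2, Tmod1, Add2 and Dmtn only through their leukemic values. With a pseudocount of 0.1 their median log2 fold change was 4.93. A filter at 70 left 951 genes called of 7069 tested and 1 of 5 relatives used outside red cells. Over all genes, 893 were called higher and 660 lower as reported, and 754 higher and 907 lower with quantile normalization, under which Actb was also called lower.

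Leaving out 1 sample each gave 149 to 1620 genes called over the whole table, 0 to 8 skeleton genes, 0 to 15 membrane partners and 1 to 2 relatives, with a median log2 fold change of the skeleton genes of 3.15 to 4.08. Genes called over the whole table were 932, 443, 271 and 149 without preleukemic replicates 1 to 4. These fits have fewer samples, and the cause was not tested further.

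Same-numbered samples of the groups showed little shared deviation (correlations 0.03, 0.05 and -0.09), though so few values cannot exclude a pairing. Preleukemic replicate 4 has no leukemic sample of its number. The median log2 fold change of the skeleton genes was therefore 3.33 both with the replicate block and without that sample. With the replicate block, limma called 0 genes (2429 with an unadjusted p under 0.05), 0 skeleton genes (8), 0 partners (14) and 0 relatives (2).

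The sign turned for Actb (0.039) and Mpp1 (0.045) without leukemic replicate 1, for Cd3g (-0.21) without leukemic replicate 2 and for Epb4.1l2 (0.046) without leukemic replicate 3, none of which passed there. Leaving out leukemic samples, the log2 fold change ran from -0.0878 to 0.039 for Actb, -0.3743 to 0.045 for Mpp1, -0.21 to 0.395 for Cd3g and -0.0954 to 0.046 for Epb4.1l2. Depth limits the low preleukemic values, where Kel rests on about 10 fragments in replicates 3 and 4.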
